A study of Taeniopygia guttata with 10 samples.

Results

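The response of G266 to 5-aza-2′-deoxycytidine (AZA) was described from 2 RNA-seq libraries and 2 MethylCap-seq libraries, 1 library per treatment for each assay. G266 is a diploid male zebra finch (Taeniopygia guttata) cell line that was derived from a spontaneous tumor. Genes were kept when at least 50 counts were present in the AZA or the DMSO library of G266, which left 11242 of 18618 genes. Methylation Peaks, the genomic intervals in which captured methylated DNA piled up, were kept when the G266 DMSO library held at least 20 fragments. This left 149937 of 719917 peaks. The AZA-treated cells had received 1 µM AZA for 72 h with a fresh dose every 24 h, and the DMSO-treated cells had received the solvent on the same schedule. ZFTMA, a tetraploid female tumor line given the same 2 treatments, was set beside G266, and an untreated ZFTMA culture showed how far a ratio moves without AZA. The whole series held 10 libraries.

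AZA is a cytosine analog that is built into DNA during replication and traps DNA methyltransferases, so that methylation is lost over successive cell divisions. MethylCap-seq captures DNA fragments that carry methylated CpGs with a methyl-CpG binding domain, and a more methylated interval therefore yields more fragments. Loss of methylation at promoters is known to allow transcription of genes that DNA methylation holds silent, of which germline genes are the textbook case. AZA is also known to damage DNA and to induce an interferon response in mammalian cells. Because each line and treatment had 1 library per assay, no difference below has a replicate check among these libraries, and a change within G266 could not be tested. Intervals in brackets are exact 95% binomial intervals that cover counting error only.

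The 2 RNA libraries of G266 held 23523400 counts with AZA and 22306354 with DMSO, against 22937813 with AZA and 35075936 with DMSO in ZFTMA. The libraries labelled G266 and ZFTMA were alike to a degree that bears on every comparison between the lines. Over 10910 genes with at least 200 counts in the 4 libraries together, 45 genes differed at least 2-fold between the AZA libraries of the lines and 126 between their DMSO libraries. None of these 10910 genes differed 8-fold between the lines in either treatment. Within G266, in contrast, 1107 of them differed at least 2-fold between AZA and DMSO, and 199 at least 8-fold. The libraries were not copies of one another, since the median chi-square per gene was 2.54 between the AZA libraries and 2.92 between the DMSO libraries, above what counting noise gives. Birds largely lack dosage compensation, so that genes on the Z chromosome are expected to be higher in a male than in a female line. The 116 Z-linked genes with a known position had a median log2 ratio of G266 over ZFTMA of 0.04 in the DMSO libraries, against 0.01 for 1653 autosomal genes. In MethylCap-seq, the DMSO fragments of G266 on Z relative to autosomes were 1.25 times those of ZFTMA. The same ratio for chromosome 4 was 1.18. Between the AZA libraries these ratios were 1.07 for Z and 1.06 for chromosome 4. The MethylCap-seq libraries of the lines were less alike than 2 libraries of ZFTMA. Log2 peak counts had a Pearson r of 0.73 between the DMSO libraries of the lines, against 0.93 between untreated and DMSO ZFTMA. The expression libraries therefore did not show the sex difference that the study states for the lines. In MethylCap-seq, the Z ratio was near that of chromosome 4 in both treatments. The names G266 and ZFTMA are used below as labels of libraries.

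No tissue of origin is labelled for G266, and no cell type was assigned from the marker lists. The fibroblast and mesenchymal list was the only one that passed the count filter in full, and its summed level was the highest. All 7 fibroblast and mesenchymal markers passed the count filter, with a summed level of 144156 depth-scaled counts with AZA and 196051 with DMSO, whereas 2 of 6 epithelial, 3 of 5 neural, 4 of 8 immune, 3 of 6 striated muscle and 1 of 4 pigment cell markers passed it. The summed levels of these other lists ran from 137 to 4064 with AZA and from 72.9 to 1827 with DMSO, and CLDN4, IKZF3, ZAP70 and MB had no count with DMSO. EPCAM, an epithelial adhesion molecule, had 1051 counts with AZA and 32 with DMSO. Of the 3 neural markers that passed the filter, UCHL1, a ubiquitin hydrolase abundant in neurons, had 826 counts with AZA and 34 with DMSO. ENO2, the neuronal enolase, was lower, with 92 counts with AZA and 198 with DMSO, and the adhesion molecule NCAM1 was within 2-fold, with 890 and 550. These 4 genes and KCTD17, FAM107B, IL15, DDX4, PIWIL1, TRANK1, ZNFX1, DTX3L, PARP9, DHX58, THBS4, COL1A2, TK1, HDAC9, CDKN1A, EGF, NRG1, DCLRE1B, and the markers and list members GRIN2A, SYK, GCLM, HOXA2, CLDN4, IKZF3, ZAP70 and MB, were named after their values had been seen, and the other genes followed the fixed rule. Whether a different mixture of cells contributed to any change was not tested.

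In G266 the RNA response to AZA was mainly an increase. Ratios are given as log2 of AZA over DMSO after scaling by sequencing depth, with 0.5 counts added to each library. Of the 11242 genes, 1142 (10.2%) were at least 2-fold higher with AZA and 248 (2.21%) were at least 2-fold lower. In ZFTMA, 10.3% of 11401 genes were higher and 1.77% lower under the same filter. The median log2 ratio in G266 was 0.02, with the middle 50% of genes between -0.25 and 0.33. Of 1412 genes with a mean level below 100 depth-scaled counts over the 4 libraries, 38.2% were at least 2-fold higher and 3.33% at least 2-fold lower. Of 387 genes above 10000, 1.03% were higher and 3.10% lower. The filter sets part of this gap, since 778 of the 1412 weak genes passed it through the AZA library alone and 105 through the DMSO library alone. A group of 38 genes had no count in the G266 DMSO library and at least 50 with AZA, whereas no kept gene had 0 counts with AZA. Of these 38 genes, 37 had at most 5 counts in the ZFTMA DMSO library as well.

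Gene symbols and positions were taken from tables of the study that pair them with gene identifiers. Those tables list genes which the study selected on these same libraries, so that the named genes are a biased sample. The selection used a paired design over both lines, aimed at the change that they share. Agreement between the lines among genes with a symbol is therefore partly set in advance. Of 1409 kept genes with a symbol, 23.7% were at least 2-fold higher and 6.32% at least 2-fold lower, against 8.22% and 1.62% of the 9833 other genes. The counts of the gene lists below have to be read against the values for genes with a symbol.

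The largest increases among genes with a symbol were in genes with at most 1 count with DMSO. RBM46, a germ cell RNA-binding protein on chromosome 4 (28226892-28233075 in the taeGut3.2.4 build), had 561 counts with AZA and 0 with DMSO in G266. MOV10L1, a helicase of the piRNA pathway that guards the germline against transposons, had 209 counts with AZA and 0 with DMSO. ASZ1, a germ cell protein of the same pathway, had 1 count with DMSO and 280 depth-scaled counts with AZA. All 3 germline genes were thus close to undetected in solvent-treated G266 cells. For genes with 0 DMSO counts, folds were taken on a floor of 3 DMSO counts, with no error allowed for in the AZA count. On that floor RBM46 was at least 167-fold and MOV10L1 at least 62.3-fold higher with AZA. ASZ1 had a log2 ratio of 7.34 [5.40, 13.20]. ZNF366, a zinc finger protein, had 196 counts with AZA and 0 with DMSO, which made it at least 58.4-fold higher.

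TRIM68, a ubiquitin ligase, had 446 counts with AZA and 1 with DMSO. DCHS2, a large cadherin of the Dachsous family, had 352 counts with AZA and 1 with DMSO. The transcription factor TBX22 had 104 counts with AZA and 0 with DMSO, and was at least 31.0-fold higher. HOXA7, a homeobox factor of body axis patterning, had 82 counts with AZA and 0 with DMSO, and was at least 24.5-fold higher. All 8 had 0 or 1 DMSO count in G266, which a ranking by ratio favours. In ZFTMA their DMSO counts lay between 0 and 4, and their AZA counts between 51 and 384, so that each was also high only with AZA there.

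**Figure D1:**
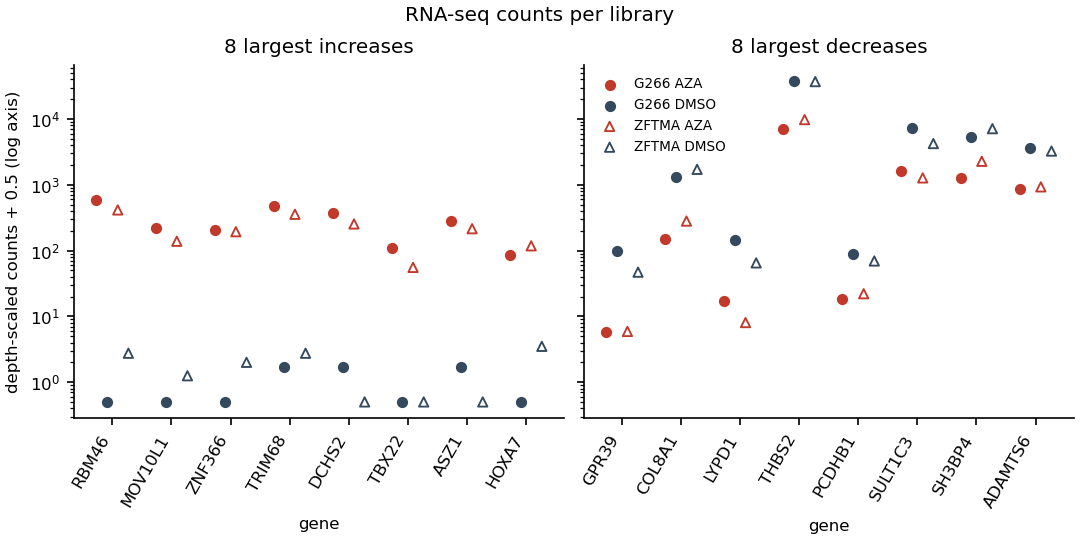
Depth-scaled RNA-seq counts plus 0.5 on a log axis for the 8 largest increases (left) and the 8 largest decreases (right) among genes with a symbol. Each point is 1 library, filled circles are G266, open triangles are ZFTMA, red is AZA and blue is DMSO. The increased genes sit at 0 to 4 raw counts in the DMSO libraries, while the decreased genes were expressed with DMSO in both lines.

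The largest decreases were smaller and concerned genes that were expressed with DMSO. GPR39, a zinc-sensing receptor, had 5 counts with AZA and 84 with DMSO in G266 (log2 ratio -4.09 [-5.89, -2.95]). COL8A1, a short-chain collagen, had 140 counts with AZA and 1135 with DMSO (-3.18 [-3.44, -2.93]). THBS2, a matricellular protein that restrains vessel growth, had 6731 counts with AZA and 31907 with DMSO (-2.41 [-2.44, -2.37]). THBS2 was the most abundant of these decreased genes. LYPD1 had 16 and 125 counts, the protocadherin PCDHB1 17 and 76, the sulfotransferase SULT1C3 1533 and 6207, and SH3BP4, an inhibitor of amino acid signalling to mTORC1, 1192 and 4531 with AZA and DMSO. ADAMTS6, a secreted metalloproteinase, had 814 counts with AZA and 3053 with DMSO (-2.07 [-2.18, -1.96]). All 8 were also lower with AZA in ZFTMA, with log2 ratios from -3.02 to -1.65. Each was nearer to 0 there than in G266, the line in which the 8 genes had been ranked.

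The question that sets G266 apart is whether it mounted a stress response that ZFTMA lacked. The 6 lists of stress genes held 99 genes with a symbol, of which 88 passed the count filter in G266. Of these, 14 (15.9%) were at least 2-fold higher and 9 (10.2%) at least 2-fold lower, against 23.7% and 6.32% of kept genes with a symbol. The same 2 shares apply to the counts of each list below, but not to counts among genes with at least 50 DMSO counts. For those genes no share over all genes is given, so such counts have no background here. Some of the 14, in the heat shock and the immediate early lists, passed the filter through the AZA library alone. The median log2 ratio of the 88 genes was 0.16. None of the 87 that also passed the filter in ZFTMA was past 2-fold in G266 while its log2 ratio lay within 0.5 of 0 in ZFTMA, the size set for absence. Over all 11109 genes with counts in both lines, 27 (0.243%) met that criterion, a share so small that a count of 0 among 87 genes says nothing particular about stress genes. Over all genes past 2-fold in G266 with counts in ZFTMA, 949 of 1057 higher and 143 of 246 lower genes were past 2-fold likewise there. Symbols came from tables that the study selected for a change shared by the lines, which favours such agreement. Of the 23 stress genes past 2-fold in G266, 22 were past 2-fold in the same direction in ZFTMA. The exception was CP, the copper-carrying ferroxidase ceruloplasmin, with 347 counts with AZA and 154 with DMSO in G266 (1.01 [0.73, 1.29]) against 288 and 221 in ZFTMA (0.90 [0.65, 1.17]). CP fell below 2-fold in G266 with TMM scaling (0.93) and with a prior of 5 counts (0.99).

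Genes of the p53 pathway, which halts growth after DNA damage, were mixed. Of 9 genes that passed the filter, 3 were at least 2-fold higher and 1 was lower, with a median log2 ratio of 0.55 in G266 and 0.59 in ZFTMA. PLK2, a polo-like kinase induced by stress, had 2643 counts with AZA and 696 with DMSO (1.76 [1.64, 1.89]). PLK3, a kinase of the same family, had 629 and 169 (1.73 [1.49, 1.99]), and PIK3R1, the regulatory subunit of PI3-kinase, had 1093 and 378 (1.37 [1.20, 1.54]). BMF, a pro-apoptotic BH3-only protein, was lower, at 25 counts with AZA and 81 with DMSO (-1.83 [-2.57, -1.194]). CDKN1A, the cyclin-dependent kinase inhibitor p21 and the best known p53 target, lay just outside the filter. It had 47 counts with AZA and 4 with DMSO in G266 (3.25 [1.94, 5.33]), against 43 and 17 in ZFTMA (1.83 [1.02, 2.77]). The counting intervals of the lines overlapped. The annotated model of CDKN1A spans only 30967508-30967669 on chromosome 6, so its counts may not reflect the whole transcript. GRIN2A and SYK, at 52 and 50 counts with AZA, lay just inside the filter.

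None of the 24 DNA repair and replication stress genes was past 2-fold in either direction in G266. The list median was -0.20 in G266, against -0.19 for ZFTMA, and their values in G266 ran from -0.88 to 0.99. The gene nearest the limit was DCLRE1B, a nuclease of telomere ends, with 67 counts with AZA and 30 with DMSO (0.99 [0.36, 1.67]), which passed it when genes were scaled by total counts.

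Of 18 genes of the unfolded protein and integrated stress response, 6 were at least 2-fold lower with AZA and 1 was higher. PSAT1, a serine synthesis enzyme, had 1274 counts with AZA and 3967 with DMSO in G266 (-1.80 [-1.89, -1.71]). SLC7A5, an amino acid transporter, had 108 and 294 counts (-1.60 [-1.94, -1.28]), and ALDH18A1, an enzyme of proline synthesis, had 2824 and 6806 (-1.43 [-1.49, -1.37]). ALDH1L2, a mitochondrial folate enzyme, had 999 and 2403 counts (-1.43 [-1.53, -1.32]), and CHAC1, which degrades glutathione, had 442 and 1105 (-1.48 [-1.65, -1.32]). Targets of any single regulator within this list were not counted as a set. In the whole list, 11 genes were within 2-fold. The sixth lower gene was SERPINH1, the collagen chaperone HSP47, with 8239 counts with AZA and 19766 with DMSO (-1.42 [-1.46, -1.39]). STC2, a secreted glycoprotein, was the 1 gene that was higher, with 1652 and 510 counts (1.53 [1.39, 1.68]). In ZFTMA the same list also had 6 lower genes and 1 higher gene, and its median was -0.19 against -0.25 in G266.

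Of 9 heat shock and chaperone genes, 3 were at least 2-fold higher and 1, SERPINH1, was lower. The filter fixed the direction of 2 of these 3, which passed it through the AZA library alone. Of the 6 genes with at least 50 DMSO counts, 1 was higher. HSPB1, the small heat shock protein HSP27, had 82 counts with AZA and 1 with DMSO in G266 (5.65 [3.68, 11.52]), and 77 and 0 in ZFTMA. FKBP5, a co-chaperone of steroid receptors, had 1150 counts with AZA and 318 with DMSO (1.69 [1.51, 1.88]), and UNC45B, a chaperone of myosin, had 61 and 21 (1.36 [0.64, 2.17]). The 2 higher genes that are not silent with DMSO differed between the lines by at most 0.44 on the log2 scale.

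Of 11 oxidative stress and glutathione genes, 2 were higher and 2 were lower. OSGIN1, a growth inhibitor induced by oxidative stress, had 1032 counts with AZA and 71 with DMSO in G266 (3.69 [3.35, 4.07]), against 921 and 209 in ZFTMA (2.66 [2.45, 2.89]). The difference between these log2 ratios was 1.03, and the counting intervals of the lines did not overlap. Among kept stress genes past 2-fold in G266, only OSGIN1 and HSPB1 differed between the lines by at least 1 on the log2 scale. Both were higher with AZA in both lines. With a prior of 5 counts no stress gene met that limit, and 1 met it with a count minimum of 200. With a minimum of 20, 3 met it, and CDKN1A had a difference of 1.42. The difference of HSPB1 rests on 1 DMSO count in G266 and 0 in ZFTMA. NOX4, an NADPH oxidase, was lower, with 1392 counts with AZA and 3880 with DMSO (-1.64 [-1.73, -1.55]), and CHAC1 was the other lower gene. GCLM, the modifier subunit of glutathione synthesis, had 1175 counts with AZA and 1740 with DMSO (-0.73 [-0.84, -0.62]).

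Of 20 immediate early and mitogen signalling genes, 5 were at least 2-fold higher and 1 was lower in G266. The filter fixed the direction of 3 of these 5, which passed it through the AZA library alone. Of the 17 genes with at least 50 DMSO counts, 2 were higher. The higher genes included 3 ligands of the EGF receptor. HBEGF had 364 counts with AZA and 45 with DMSO (2.84 [2.41, 3.34]), BTC had 294 and 49 (2.41 [1.98, 2.89]), and EREG had 127 and 52 (1.12 [0.65, 1.62]). EGF itself had 13 counts with AZA and 1 with DMSO and was below the filter, while the neuregulin NRG1 had 394 and 480 (-0.45 [-0.64, -0.25]). PTGS2, the inducible cyclooxygenase, had 698 counts with AZA and 219 with DMSO (1.51 [1.29, 1.74]), and KLF2, a Krüppel-like transcription factor, had 93 and 12 (2.75 [1.92, 3.80]). The kinase gene PIM3 was lower, at 968 counts with AZA and 2218 with DMSO (-1.36 [-1.47, -1.25]). The list median was 0.64 in G266 and 0.79 in ZFTMA, where 8 genes were higher and 1 was lower.

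**Figure D2:**
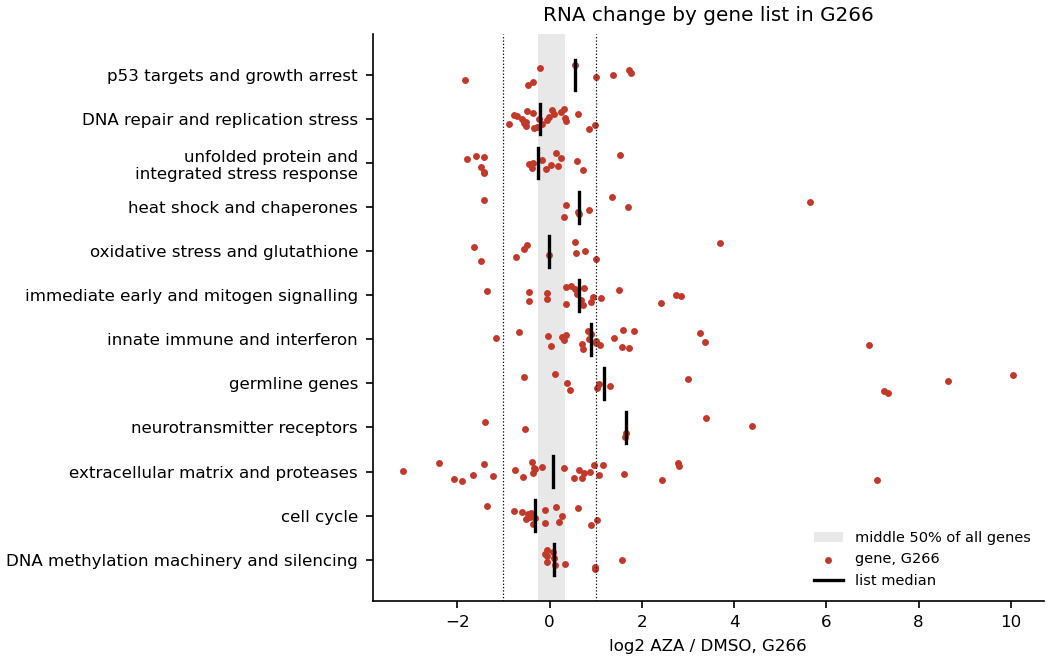
Log2 ratio of AZA over DMSO in G266 for genes with at least 50 counts in either library, by gene list. Each red point is 1 gene, the black bar is the list median, the grey band spans the middle 50% of all 11242 genes (-0.25 to 0.33) and the dotted lines mark 2-fold. No DNA repair gene passes a dotted line, and 5 of the 8 germline genes above the upper one passed the filter through the AZA library alone.

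Outside the stress lists, 12 of 19 germline genes passed the filter and the other 7 had too few counts. Of the 12, 8 were at least 2-fold higher and none was lower. The filter fixed the direction of 5 of these 8, which passed it through the AZA library alone, and of the 7 genes with at least 50 DMSO counts 3 were higher. Besides the genes above, DDX4, the germ cell helicase VASA, had 1103 counts with AZA and 6 with DMSO in G266. PIWIL1, a piRNA-binding Argonaute protein, had 336 counts with AZA and 37 with DMSO. Of 23 innate immune and interferon genes, 11 were at least 2-fold higher and 1 was lower, and 4 of the 11 passed the filter through the AZA library alone. The cytokine IL15 had 64 counts with AZA and 0 with DMSO. TRANK1 had 5539 counts with AZA and 1394 with DMSO, and ZNFX1, a helicase that senses viral RNA, had 2738 and 811. The interacting pair DTX3L and PARP9 had 2051 and 878 counts with AZA against 620 and 299 with DMSO. DHX58, the RNA sensor LGP2, had 138 counts with AZA and 37 with DMSO. PARP9 and DTX3L had log2 ratios of 1.39 and 1.56 in G266 against 0.95 and 1.04 in ZFTMA, a difference of 0.44 and 0.52. The immune genes named here were all picked from the higher ones, and 11 of the 23 were within 2-fold in G266. The median of this list was 0.89 in G266 and 0.75 in ZFTMA, where 8 genes were higher and 1 was lower. Of its 22 genes with counts in both lines, 3 had opposite signs in the lines. With TMM scaling, 6 germline and 9 innate immune genes were at least 2-fold higher.

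Of 28 extracellular matrix and protease genes, 7 were higher and 7 were lower, with a median of 0.07. Of the 7 higher genes, 2 passed the filter through the AZA library alone. COL1A2, a chain of type I collagen and the most abundant gene of the list, had 41198 counts with AZA and 86112 with DMSO (-1.22 [-1.24, -1.21]). THBS4, another thrombospondin, had 946 counts with AZA and 122 with DMSO and so moved opposite to THBS2. Of 17 cell cycle genes, 1 was higher and 1 lower, and their median was -0.32. The lower one was TK1, the thymidine kinase of S phase, with 3105 counts with AZA and 7111 with DMSO (-1.36 [-1.42, -1.30]). Of 11 genes of DNA methylation and silencing, 1 was higher. That gene was the histone deacetylase HDAC9, with 212 counts with AZA and 64 with DMSO. Of 6 neurotransmitter receptor genes that passed the filter of 20 listed, 4 were higher and 1 was lower. The 4 higher genes all passed it through the AZA library alone, which fixed their direction. Neither of the 2 receptor genes with at least 50 DMSO counts was higher. Of 7 HOX genes 2 passed the filter, of which HOXA7, through the AZA library alone, was higher and HOXA2 lower.

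The remaining genes were named from a fixed list of 8, among them genes that the study followed singly. In independent G266 samples outside these libraries, the study reported higher RNA with AZA by quantitative PCR for several of them. These were ANK1, MMP9, IKBKE, NGB, GABRD and the gene it calls HES1-4. HES1, a Notch effector, had 68 counts with AZA and 8 with DMSO (2.86 [1.87, 4.20]). ANK1, a membrane skeleton adaptor, had 456 and 56 (2.85 [2.46, 3.29]), and MMP9, a gelatinase, had 97 and 12 (2.81 [1.98, 3.86]). IKBKE, a kinase of innate immune signalling, had 247 counts with AZA and 103 with DMSO (1.10 [0.76, 1.45]). NGB, the neuronal globin, and GABRD, a GABA receptor subunit, each had 7 counts with AZA and 0 with DMSO. Each was 2.09-fold higher on the floor of 3 counts, while the lower limit of its counting interval was a log2 ratio of 0.37. DNMT3B, a de novo DNA methyltransferase, had 10 counts with AZA and 5 with DMSO (0.78 [-0.84, 2.74]), so that a change was not detectable at this depth.

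Over all 11109 genes with counts in both lines, the log2 ratio of G266 followed that of ZFTMA closely (Pearson r = 0.95, Spearman rho = 0.85, a description across genes of libraries that shared 1 sequencing lane). Over the 10115 genes with at least 50 counts in all 4 libraries, r was 0.90 and rho 0.83. Of 1057 genes at least 2-fold higher in G266 with counts in ZFTMA, 949 (89.8%) were at least 2-fold higher there. Of 246 lower genes, 143 (58.1%) were at least 2-fold lower there. Another 87 genes past 2-fold in G266 had fewer than 50 counts in both ZFTMA libraries, and all 87 had the same sign there.

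The 27 genes that met this criterion were 9 higher and 18 lower genes. They lay close to the limit, with absolute log2 ratios from 1.01 to 1.49 in G266, and 15 of them had fewer than 100 counts in either G266 library. The same criterion with the lines exchanged gave 25 genes. Only 2 of the 27 had a symbol. FAM107B had 526 counts with AZA and 233 with DMSO in G266 (1.01 [0.79, 1.24]), against 455 and 505 in ZFTMA (0.37 [0.19, 0.56]). KCTD17 had 160 and 71 counts in G266 (1.01 [0.60, 1.44]), against 134 and 137 in ZFTMA (0.49 [0.14, 0.85]). The intervals of KCTD17 overlapped between the lines, and those of FAM107B did not.

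**Figure D3:**
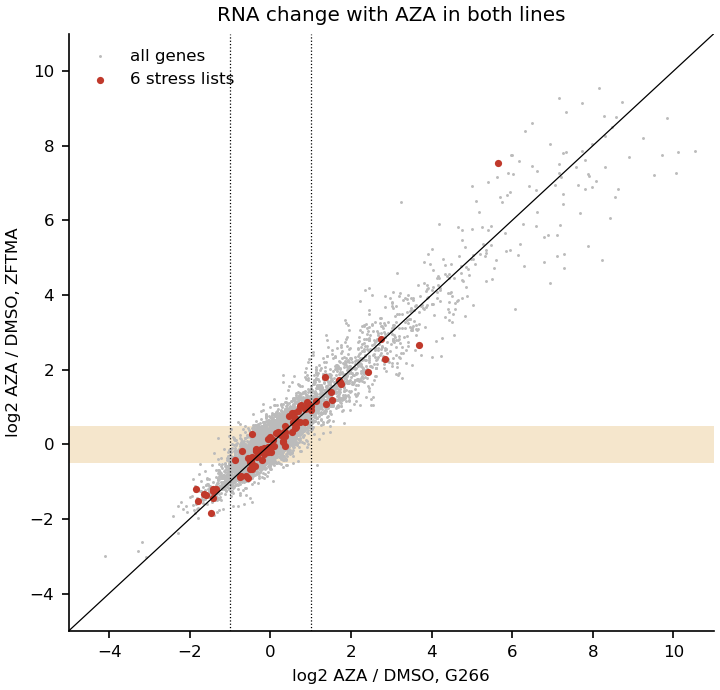
Log2 ratio of AZA over DMSO in G266 (horizontal) and ZFTMA (vertical) for 11109 genes with at least 50 counts in either library of each line. Red points are genes of the 6 stress lists, the dotted lines mark 2-fold in G266, the band marks log2 ratios within 0.5 of 0 in ZFTMA and the diagonal marks equal change. No stress gene lies outside the dotted lines and inside the band.

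The largest differences between the lines in log2 ratio came from genes with few DMSO counts. RBM46 had 384 counts with AZA and 3 with DMSO in ZFTMA, which made its difference 2.79. MOV10L1, ZNF366, HOXA7, ANO1 and ADAMTS15 had differences between 1.78 and 2.43. All of these genes except ANO1 had 0 DMSO counts in G266, so that the size of their difference depends on the prior. The log2 ratio of RBM46 in G266 was 10.05 with a prior of 0.5 counts and 6.74 with a prior of 5. ANO1, a calcium-activated chloride channel, had 110 counts with AZA and 1 with DMSO in G266, against 117 and 13 in ZFTMA. ADAMTS15, a secreted protease, had 72 and 0 counts in G266 and 59 and 2 in ZFTMA. These 6 genes thus held at most 1 DMSO count in G266 and at most 13 in ZFTMA. Their depth-scaled AZA counts went both ways between the lines. MOV10L1 had 220 in G266 against 138 in ZFTMA, and HOXA7 had 86.2 against 118. Among genes with the opposite difference, the junctophilin JPH2 had 246 counts with AZA and 3 with DMSO in G266, against 389 and 2 in ZFTMA, and the aminotransferase AGXT2 had 65 and 12 in G266, against 65 and 6 in ZFTMA. The magnesium channel TRPM6 had 50 and 12 counts in G266, against 53 and 7 in ZFTMA. PSTPIP1, an adaptor of the cytoskeleton in blood cells, had 59 counts with AZA and 42 with DMSO in G266 (0.33 [-0.27, 0.94]), against 62 and 24 in ZFTMA (1.87 [1.193, 2.64]). PSTPIP1 was the 1 gene of these 12 with no change beyond counting error in G266. All 52 named genes had the same sign in both lines, which their selection favours. Most were picked for large ratios, from tables that the study selected for a change shared by the lines.

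In MethylCap-seq, nearly every peak of G266 was lower with AZA on the scale used here. Of the mapped non-duplicate reads, 48.4% lay in Methylation Peaks with AZA against 84.4% with DMSO. The study had defined the peaks from the summed coverage of the DMSO libraries of both lines, without the AZA libraries. It also reported that a smaller fraction of reads remained after duplicate removal in the AZA-treated samples. Peaks were scaled by the reads outside peaks, which were 2714187 with AZA and 1914228 with DMSO, on the view that these background reads do not depend on methylation. On that scale the median log2 ratio of the 149937 peaks was -2.71, or 6.54-fold lower, with the middle 50% between -3.19 and -2.28. At least 8-fold lower were 51745 peaks (34.5%), and 862 (0.575%) were less than 2-fold lower. On this scale 106 peaks (0.0707%) were not lower with AZA, and these peaks had been kept by their fragments in the DMSO library, over which the ratio is taken. Both the size and, for many peaks, the direction depend on the scaling. By all non-duplicate reads, by TMM and by counts in peaks the median was -1.05, -0.40 and -0.28, and 7512, 41250 and 51004 peaks were not lower. Because background fragments inside peaks were not subtracted, a ratio also does not measure the share of methylated CpGs that was lost.

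Over the 97248 peaks with at least 20 fragments in both DMSO libraries, AZA moved the median peak by -2.69 log2 units in G266, against -3.27 in ZFTMA. Peaks at least 8-fold lower made up 31.9% in G266 and 68.6% in ZFTMA. The untreated ZFTMA library had a median log2 ratio of 0.20 over its DMSO library, and 99.4% of its peaks lay above -1. On this scale the loss of fragments in G266 was thus far outside the change seen without AZA and smaller than in ZFTMA. Scaled by all non-duplicate reads, the medians were -1.02 in G266 and -1.07 in ZFTMA, so that the gap between the lines depends on the scaling. Peak by peak, the G266 and ZFTMA ratios had a Spearman rho of 0.22 over all these peaks, 0.37 over 24836 peaks with at least 50 DMSO fragments in both lines and 0.69 over 1009 peaks with at least 200. The ratios of shallow peaks are dominated by counting error, and these correlations describe peaks of the same 4 libraries.

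**Figure D4:**
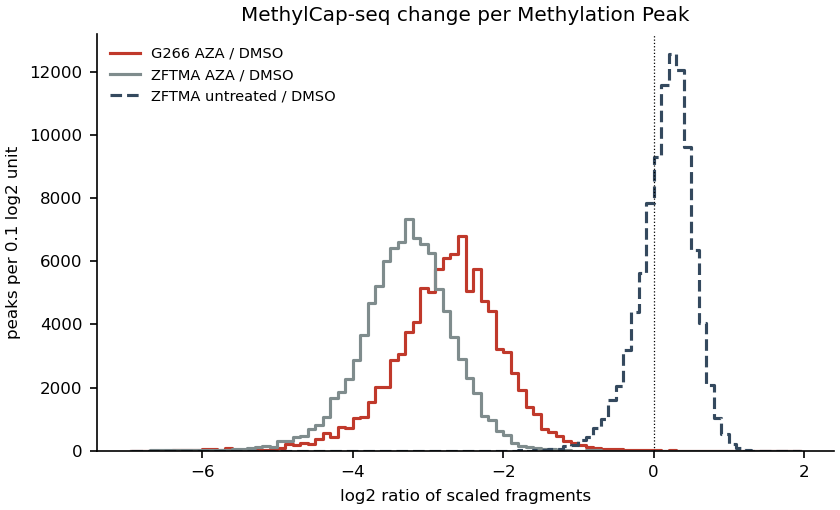
Number of Methylation Peaks per 0.1 log2 unit for the ratio of AZA over DMSO in G266 (red), AZA over DMSO in ZFTMA (grey) and untreated over DMSO in ZFTMA (dashed), over 97248 peaks scaled by reads outside peaks. The AZA ratios centre at -2.69 in G266 and -3.27 in ZFTMA, and the ratio without AZA centres at 0.20.

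The decrease was even along the genome. In 9987 windows of 100 kb on placed chromosomes with at least 200 DMSO fragments, the median log2 ratio of G266 was -2.53 with an SD of 0.21 among windows, and 98.2% of windows lay between -3 and -2. The medians of peaks on 31 chromosomes with at least 100 peaks ran from -2.84 on chromosome 22 to -2.62 on chromosome 25. One window stood out on chromosome 2 (10300001-10400000), where G266 had 695 fragments with AZA and 971 with DMSO (-0.99) and ZFTMA had 572 and 490 (-1.05). The next was on chromosome 1 (112900001-113000000), where G266 had 165 and 267 (-1.20) and ZFTMA had 149 and 287 (-2.22). The strongest loss was on chromosome 7 (29400001-29500000), with 42 fragments with AZA and 322 with DMSO in G266 (-3.42).

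Peaks that kept their fragments were most frequent on sequence not placed on a chromosome. Unplaced sequence (Un) held 1.85% of the peaks and 30.05% of the 862 peaks that were less than 2-fold lower, and 66 of the 106 that were not lower. The 5 highest ratios among 6336 peaks with at least 100 DMSO fragments were all on Un. The highest of them, at Un 124461599-124462896, held 517 AZA and 184 DMSO fragments of G266 (0.99 [0.74, 1.24]), against 450 and 304 of ZFTMA (-0.71 [-0.92, -0.50]). The others had log2 ratios from -0.43 to 0.30 in G266 and from -2.03 to -1.27 in ZFTMA. All 5 were therefore among the least reduced peaks of G266. In ZFTMA they were lower with AZA, yet they lay 1.24 to 2.56 log2 units above the ZFTMA peak median of -3.27. Their weaker loss was thus not particular to G266. Of the 5 lowest, the extreme was at chromosome 9, 15957097-15958923, which held 4 AZA and 100 DMSO fragments of G266 (-4.95 [-7.05, -3.75]), against 22 and 89 of ZFTMA (-3.25 [-4.04, -2.61]). The other 4, on chromosomes 15, 23, 6 and 24, had log2 ratios between -4.50 and -4.37 in G266 and between -3.61 and -3.12 in ZFTMA.

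The ratio was also read by peak width. Peaks of up to 200 bp had a median log2 ratio of -3.08, and 55.0% of these 10659 peaks were at least 8-fold lower. Peaks over 1600 bp had a median of -2.60, with 21.9% of 8825 peaks at least 8-fold lower. In ZFTMA the order was the other way round, with medians of -2.96 for the narrowest and -3.31 for the widest of the same peaks. The filter on G266 DMSO fragments sets part of this order. Peaks were also kept by at least 20 fragments in ZFTMA DMSO instead, a choice made after the data were seen. The G266 medians were then -2.78 for the narrowest and -2.60 for the widest. The ZFTMA medians were then -3.44 and -3.31, the same order as in G266. The opposite order of the lines thus depends on the filter. By level, peaks with 20 to 29 DMSO fragments had a median of -2.69 with an SD of 0.85 among peaks, and those with 200 or more had -2.42 with an SD of 0.49. Since width and background inside a peak move together, the share of background in these differences was not tested. At the edge of the filter, 10444 peaks with 19 DMSO fragments had a median of -2.58 and 9341 peaks with 20 had -2.66.

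**Figure D5:**
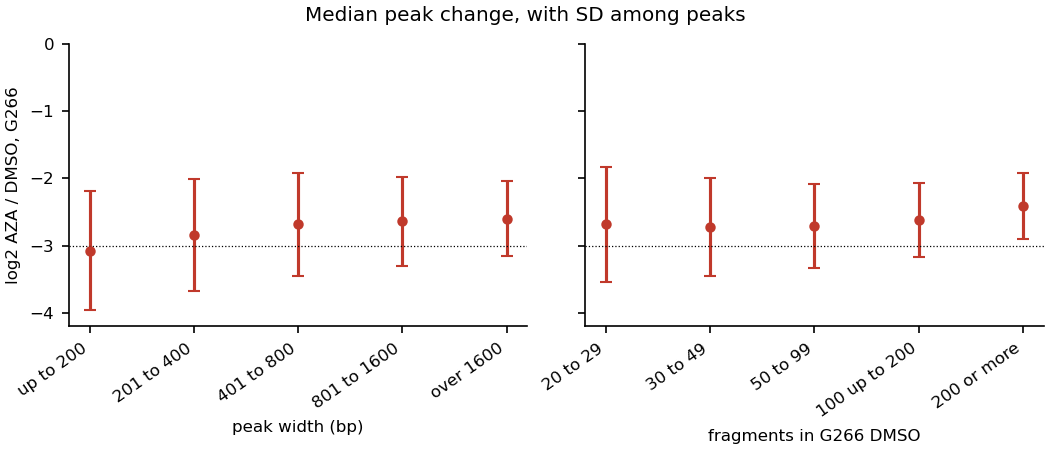
Median log2 ratio of AZA over DMSO in G266 by peak width (left) and by the number of fragments in the G266 DMSO library (right), with bars for the SD among peaks and a dotted line at 8-fold lower. The median runs from -3.08 in peaks of up to 200 bp to -2.60 in peaks over 1600 bp, and the SD shrinks from 0.85 at 20 to 29 fragments to 0.49 at 200 or more.

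Reduced representation bisulfite sequencing (RRBS), which reads methylation at single CpGs, was available for untreated ZFTMA only. Among 33240 of the G266 peaks that held at least 3 measured CpGs, the median CpG methylation in that library was 77.1%. In the fifth of these peaks that lost most in G266 it was 72.8%, and in the fifth that lost least it was 81.7%. The 514 peaks less than 2-fold lower in G266 had a median of 84.4%. The peaks best kept with AZA in G266 were thus more methylated in untreated ZFTMA cells, a description across peaks of another line.

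At the named genes, the peak with most G266 DMSO fragments within 2000 bp outside or 500 bp inside either gene end was examined, because the strand of the genes was not known. Of 52 named genes, 49 had such a peak with at least 20 fragments. All 49 were lower with AZA, with log2 ratios from -4.31 to -0.65 and a median of -2.57, and 16 (32.7%) were at least 8-fold lower, close to the 34.5% of all peaks. By all non-duplicate reads, by TMM and by counts in peaks, 3, 13 and 18 of the 49 were not lower. The largest loss was at HBEGF (chromosome 13, 16366795-16367554), with 2 fragments with AZA and 36 with DMSO (-4.31 [-7.77, -2.72]). The peaks at NGB with 3 and 33 fragments (-3.72 [-6.31, -2.29]), GABRD with 4 and 37 (-3.53 [-5.66, -2.24]) and PLK3 with 12 and 99 (-3.48 [-4.55, -2.68]) followed. The deepest peak, at HOXA7, had 171 fragments with AZA and 781 with DMSO (-2.69 [-2.94, -2.45]) and lay at the centre of all peaks. The study also read single promoter CpGs in independent samples by pyrosequencing of bisulfite-treated DNA. In G266 the study reported a significant loss there at BDNF, NGB, GABRD, ANK1 and its HES gene. The loss at MMP9 and IKBKE was not significant in G266, and the study described its pyrosequencing changes as modest. The CpGs it read need not lie in the peaks named here.

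The peaks at the 8 largest RNA decreases had log2 ratios from -3.32 to -1.82, with a median of -2.80. The peaks at GPR39 and THBS2 each had 8 fragments with AZA and 60 with DMSO (-3.32 [-4.69, -2.34]), and the peak at COL8A1 had 8 and 56 (-3.22 [-4.59, -2.23]). The smallest losses among them were at LYPD1 (-1.82), PCDHB1 (-1.93) and SH3BP4 (-2.13). The 2 smallest losses of all were at genes with at most 1 DMSO count and lie near each other on chromosome 4. The peak at DCHS2 (28062294-28062936) had 25 fragments with AZA and 28 with DMSO in G266 (-0.65 [-1.51, 0.16]), and the peak at RBM46 (28224152-28225093) had 34 and 45 (-0.90 [-1.60, -0.23]). In ZFTMA these peaks had log2 ratios of -1.64 and -2.30. By all non-duplicate reads both turned positive in G266, to 1.04 at DCHS2 and 0.81 at RBM46. Both were above 99% of the G266 peaks, although both genes were among the largest RNA increases.

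With all peak fragments at both gene ends summed, 446 genes at least 2-fold higher in G266 had a median log2 ratio of -2.59 in fragments, 101 genes at least 2-fold lower had -2.66, and 1322 genes within 2-fold had -2.84. The middle 50% of the 3 groups overlapped widely. The genes within 2-fold were in the tables mostly because the study selected them for a loss of promoter methylation in these libraries, so that the groups were not compared further.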

How the data were processed

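G266 cells were profiled by RNA-seq and MethylCap-seq after AZA or DMSO treatment, with 1 library each. The authors mapped RNA reads with STAR 2.3.0 and MethylCap-seq and RRBS reads with Bowtie2 2.1.0 and Bismark 0.9.0 on the taeGut3.2.4 build, and the deposited gene and peak tables hold raw counts. RNA was depleted of rRNA and all 4 RNA libraries shared 1 lane. Columns were matched to samples by name. The deposited RRBS file gives percent methylation per CpG with its coverage.

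Genes were scaled by PoissonSeq depth over the 4 RNA libraries (own code, 5 iterations, quantiles 0.25 to 0.75), and peaks by reads outside Methylation Peaks, computed from the read totals the study states, less the counts in peaks. Log2 ratios were computed with a prior of 0.5 counts, and intervals are exact binomial at 95% without resampling. PCR reads carry no molecular identifiers, so that intervals and the floor of 3 counts cover counting error only. The floor leaves out the counting error of the AZA count. TMM (edgeR 4.0.16) and size factors (DESeq2 1.42.0) were alternatives in R 4.3.3, beside Python 3.11.15, numpy 2.4.6, pandas 2.3.3 and scipy 1.17.1. The calculation was tested on simulated data.

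Named genes were, among genes with a symbol and at least 50 counts in either G266 library, the 8 largest increases and decreases, the 6 largest differences between lines in each direction, stress genes past 2-fold, and a fixed list of 8 genes, most of them followed singly in the study. Named peaks were those at these genes and the 5 highest and lowest with at least 100 DMSO fragments. The members and the gene lists were chosen with earlier results of these data known. No genome of the build was used here, so no sequence is shown.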

Additional observations from a re-analysis of the deposited data

How the results depend on the processing

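No paired analysis was possible because G266 had 1 library per treatment and the labels carry no replicate numbers. A fit over both lines with the line as a block, which describes the change they share and not that of G266, was not run. TMM, total counts and DESeq2 size factors gave 1066, 1231 and 1070 genes at least 2-fold higher and 323, 197 and 318 lower, against 1142 and 248. The share of higher genes among all genes past 2-fold ran from 76.7% with TMM to 86.2% with total counts, and was 82.2% with PoissonSeq depth. The count minimum moved the counts most. With a minimum of 20, of 200 and with none, 1747, 508 and 3990 genes were at least 2-fold higher, and 54, 6 and 400 were past 2-fold in G266 with a log2 ratio within 0.5 of 0 in ZFTMA. With no minimum 570 genes were lower. The 27 genes of that criterion became 17 with a prior of 5 counts, 8 when that limit was 0.25, and 114 when the lines had to differ by at least 1 on the log2 scale instead. The 14 higher stress genes became 13 with TMM, with DESeq2 size factors and with a prior of 5 counts, and 17 with total counts. No stress gene met the criterion under any of the 3 other scalings, the prior of 5 counts or the minima of 20 and 200.

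Peak values depended on the scaling. By all non-duplicate reads, by counts in peaks and by TMM, the median log2 ratio was -1.05, -0.28 and -0.40, the peaks at least 8-fold lower numbered 3792, 1496 and 1567, and those not lower 7512, 51004 and 41250. With a prior of 5 counts the median was -2.06 and 2337 peaks were at least 8-fold lower. Minima of 10 and 50 DMSO fragments left 102460 and 9168 peaks at least 8-fold lower and 233 and 23 not lower, and a minimum of 20 in ZFTMA DMSO gave 33947 and 214, with fewer or more peaks described in each case. Of the 52 named genes, none past 2-fold changed sign under the alternatives run for it. Of the 49 peaks at named genes, all lower when scaled by reads outside peaks, 3 turned by all non-duplicate reads, 13 by TMM and 18 by counts in peaks. The peaks at Un 132466915 and Un 129655655 turned as well, to 1.38 and 1.29 by all non-duplicate reads. With peaks kept by ZFTMA DMSO fragments, an alternative added after the data were seen, peaks of up to 200 bp had a median of -2.78 in place of -3.08. Depth limits genes under about 10 counts with DMSO, whose intervals span several log2 units, and 1 library per treatment leaves the spread between cultures unmeasured.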

Other observations

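Of the 10 largest increases among all kept genes of G266, 8 had no symbol in the tables used here, against 3 of the 10 largest decreases. ENSTGUG00000016607 had 784 counts with AZA and 0 with DMSO in G266, at least 234-fold higher on the floor of 3 counts, and 747 and 4 in ZFTMA. ENSTGUG00000016007 had 590 and 0 counts in G266, and 566 and 3 in ZFTMA. ENSTGUG00000012424 was the largest decrease without a symbol, at 68 counts with AZA and 595 with DMSO in G266 and 99 and 1045 in ZFTMA.

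Genes that were at least 2-fold lower on average over the lines tended to be further from 0 in G266 than in ZFTMA. This held for 72.6% of 197 such genes, with medians of -1.32 in G266 and -1.19 in ZFTMA, and for 64.3% to 73.4% under the other scalings. For the 1072 genes that were higher, 51.6% were further from 0 in G266, and 51.1% to 55.9% under the other scalings. These values have no replicate check.

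On chromosome 16, which is known in birds to carry the major histocompatibility genes, 3 peaks passed the filter and their median log2 ratio in G266 was 0.98, against -0.80 in ZFTMA. Both values lay above the peak medians of their lines. These were -2.71 in G266 and, over peaks with at least 20 fragments in both DMSO libraries, -3.27 in ZFTMA.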
